A study of Mus musculus with 40 samples.

Results

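Wild-type cerebella from animals aged 29 months were compared with those from animals aged 2 months. The feed of both ages was the normal diet, whose α-tocopherol content was 36 mg/kg, and the background was C57Bl/6. There were 4 arrays at each age, each from a separate mouse. These are 8 of the 40 arrays of a series on age, vitamin E in the diet and loss of the α-tocopherol transfer protein Ttpa, and they were chosen by tissue, genotype, diet and age alone. Each array was a 1-colour Agilent whole-genome mouse array hybridised with RNA of the whole cerebellum of 1 animal, and the sex of the mice was not given in the sources used here. Every value below is the log2 signal of a probe relative to the 75th percentile of its own array, so that 0 is the level of that percentile and a difference of 1 is a 2-fold change. A call, up- or down-regulated, needed an adjusted p under 0.05 in limma together with a fold change over 1.5.

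The cerebellum holds a very large population of small granule cells, a single sheet of Purkinje cells that carry its only output from the cortex, inhibitory interneurons, and a form of astrocyte, the Bergmann glia, whose fibres run alongside the Purkinje dendrites. Microglia are the resident macrophages of brain tissue, and in older animals they are known to express more complement, lysosomal and antigen-presenting genes. Type I interferons are signalling proteins of antiviral defence, and their target genes are known to be more active in old brain. Because whole tissue was assayed, more cells of a type and more RNA per cell of that type cannot be told apart in any result below.

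Markers of the cerebellum were high on all 8 arrays. Pcp2, a Purkinje cell protein, lay between 7.71 and 8.20, and Gabra6, the granule cell GABA receptor subunit, between 5.04 and 5.59. The 75th percentile itself was 546 to 707 intensity units on the young arrays and 616 to 683 on the aged ones, and 55.3 to 57.1% and 56.7 to 60.7% of probes were well above background. Correlations over probes were 0.983 to 0.987 among young arrays, 0.986 to 0.993 among aged arrays and 0.979 to 0.988 between the ages. Young cerebella were hybridised on slide 3 and aged cerebella on slide 4, so age and slide cannot be told apart in this tissue. The samples called cerebrum here were labelled cortex, and for them both ages lay on 1 slide.

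The young arrays were not alike. The choroid plexus is the tissue that makes cerebrospinal fluid in the ventricle beneath the cerebellum. The summed level of its 15 listed genes was 403.1, 66.4, 34.9 and 31.5 times the 75th percentile on young replicates 1 to 4. On the aged arrays it was 24.1 to 27.4 times. Young replicates 1 and 2 were also far below all other arrays for Slc17a6 and a set of other neuronal genes, and young replicate 4 alone was at the aged level for several clock genes. Summed red blood cell genes were 10.1 to 25.5 on the young and 39.4 to 277.9 on the aged arrays, and summed neutrophil genes 1.50 to 5.03 and 5.36 to 54.7. Calls of a change with age that were lost without 1 young array or without young replicates 1 and 2 are named as such beside the gene.

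Of 22442 genes tested in the cerebellum, 1019 were up-regulated with age, which is 4.54%, and 226 were down-regulated, which is 1.01%. The change was lopsided in size as well as in number. More than 4-fold differences were found for 164 up-regulated and 9 down-regulated genes, and the median log2 difference over all tested genes was -0.0043. The 4 aged arrays did not overlap the 4 young ones for 4519 genes, 20.1% of those tested, and 1032 of the called genes were among them. Of 225 called genes with several tested probes, all probes had the same direction for 209 and all were called for 117. By the same rule the cerebrum had 384 up-regulated genes, 1.82% of 21066 tested, and 90 down-regulated, 0.427%, and 238 genes were up-regulated in both regions. Without young replicates 1 and 2 the number of up-regulated probes was 677 in place of 1223, and the number of down-regulated probes was 194 in place of 318.

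**Figure D1:**
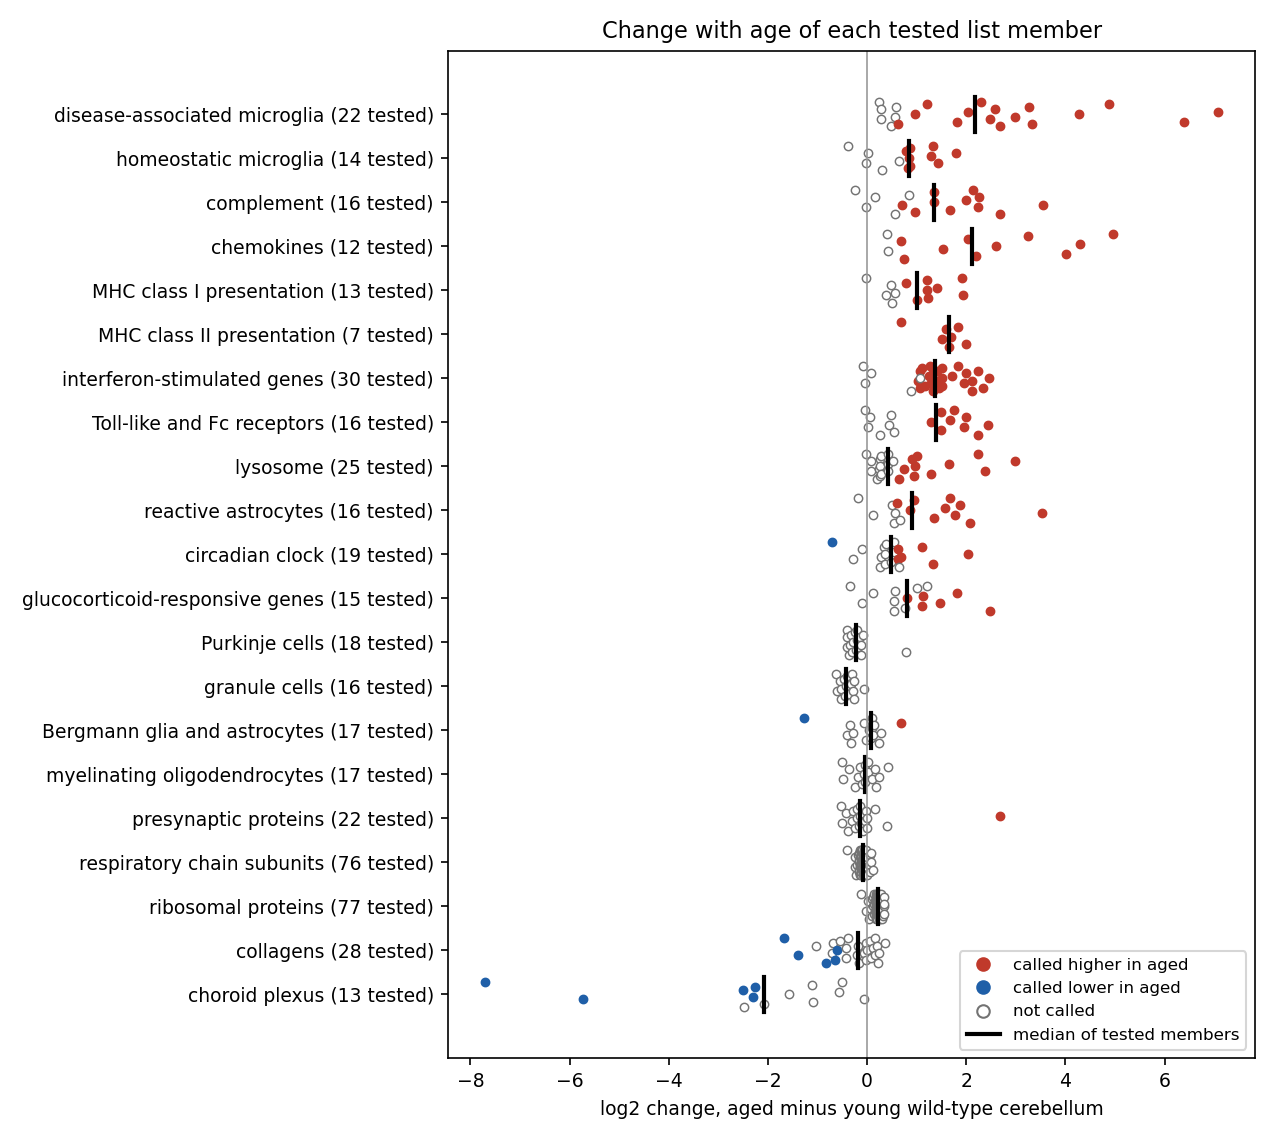
Log2 difference, aged minus young wild-type cerebellum, of the tested genes of each gene list, 1 point per gene, filled where called, with the list's median as a bar. Lists of microglia, complement, chemokines, antigen presentation and interferon targets lie to the right of 0, with medians from 0.84 for homeostatic microglia to 2.17 for disease-associated microglia, whereas Purkinje, granule cell and oligodendrocyte lists lie near or just below 0.

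The 2 largest rises were in genes of activated microglia. All 22 genes of the disease-associated microglia list were tested, 4 of them through the aged group alone, and 16 were up-regulated and none down-regulated, with a median difference of 2.17. Cst7, which encodes the protease inhibitor cystatin F, lay at -6.52, -6.80, -6.89 and -6.76 on young replicates 1 to 4 and at 0.15, 0.23, 0.21 and 0.75 on aged replicates 1 to 4. It was not well above background on any young array and was well above it on every aged array, so that aged cerebellum held at least 34.6-fold more Cst7 signal (adjusted p = 4.7e-16). Itgax, the integrin CD11c, followed the same pattern, with -6.60, -6.39, -6.90 and -6.68 in young and -0.64, -0.35, -0.17 and 0.16 in aged mice. Its signal was at least 23.1-fold higher (adjusted p = 3.8e-16). These folds depend on how the background is treated, since with normexp background correction the log2 differences were 3.37 for Cst7 and 2.95 for Itgax, both still called.

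Clec7a, the β-glucan receptor dectin-1, was measurable at both ages. Its probe (mm9 chr6:129411739-129411798) gave -3.59, -3.77, -3.37 and -3.79 in young and 1.04, 1.23, 1.37 and 1.35 in aged cerebellum. The young and aged arrays were far apart, and the difference was 4.87 (SE 0.318, adjusted p = 4.4e-13), or 29.3-fold. The lysosomal membrane glycoprotein Gpnmb rose 19.3-fold, from -3.45 ± 0.33 to 0.82 ± 0.49 (SD, n = 4 each). Trem2, a lipid-sensing receptor of microglia, and Tyrobp, the adaptor through which it signals, rose by 2.67 and 2.49. Lyz2, the macrophage lysozyme, rose by 3.33, Lgals3, a galactoside-binding lectin, by 3.26, and Spp1, osteopontin, by 1.81. At the other end of the list, Apoe, the main lipid carrier of brain, was 0.56 higher and Ctsb, a cathepsin, 0.24 higher, and neither was called.

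**Figure D2:**
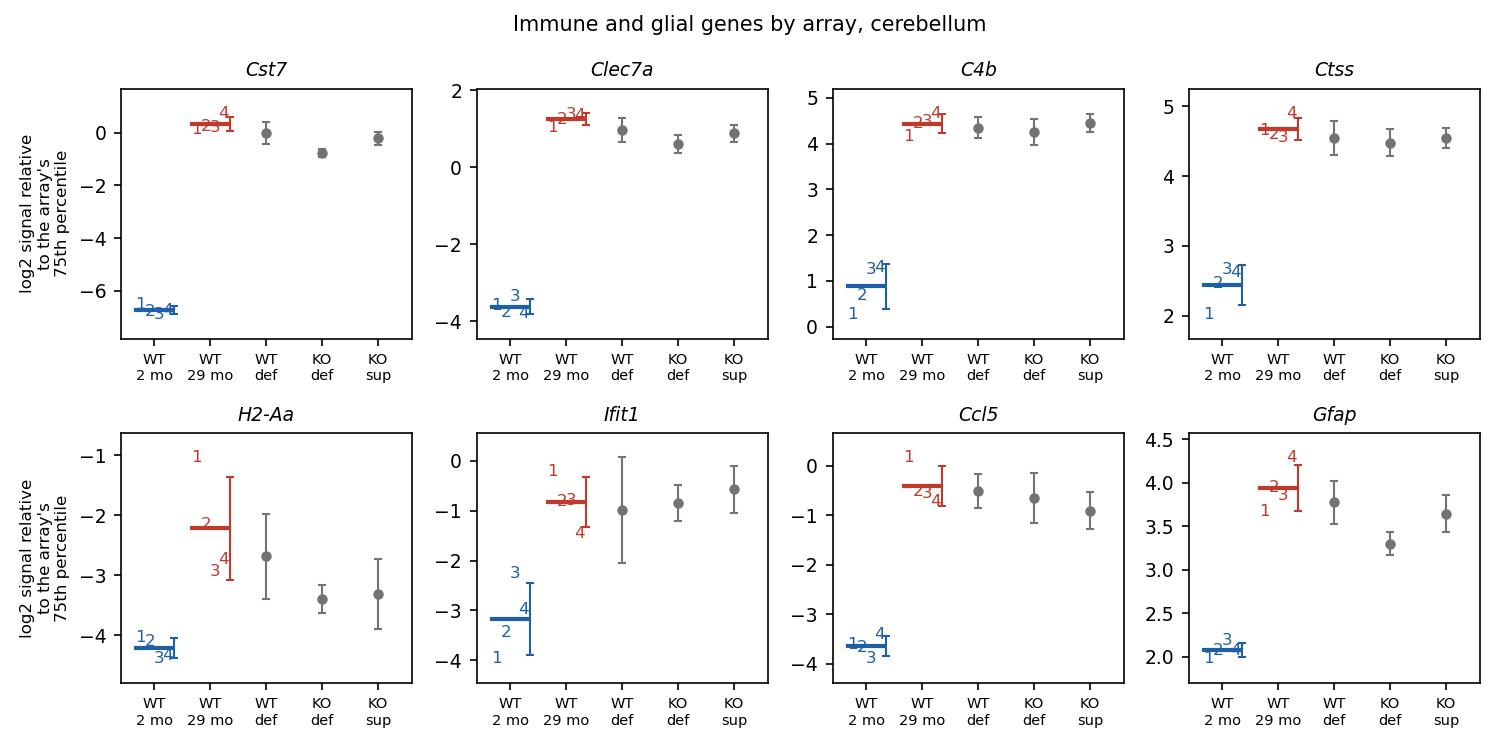
Log2 signal relative to each array's 75th percentile for genes up-regulated in aged cerebellum, with the digits marking young and aged wild-type replicates 1 to 4, bars the group mean and error bars the SD, and grey points the mean ± SD of the other aged cerebellar groups (WT wild-type, KO Ttpa-/-, def deficient diet, sup supplemented diet). Cst7 lies at or below -6.52 on every young array and above 0 on every aged array with a digit, and of the genes plotted H2-Aa spreads most among these aged arrays.

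Genes that mark microglia at rest were also higher, by less. Of 14 homeostatic microglia genes, all tested at both ages, 9 were up-regulated with a median of 0.84. Aif1, the calcium-binding protein Iba1 used to stain microglia, read -0.45, -0.27, 0.02 and 0.16 in young and 1.70, 1.53, 1.76 and 1.65 in aged mice. The groups did not overlap, and the difference was 1.79 (SE 0.168, adjusted p = 1.9e-09). Tmem119, a surface marker of resident microglia, rose by 0.87, Csf1r, the receptor on which microglia depend, by 0.79, and Cx3cr1, the fractalkine receptor, by 0.84. P2ry12, the ADP receptor of resting microglia, was 0.29 higher (adjusted p = 0.34), and Siglech, a sialic acid-binding lectin, 0.02 higher (adjusted p = 0.98), neither of them called. Markers of macrophages at the brain's borders moved less uniformly, with 2 of 6 tested genes up-regulated, and 1 without young replicate 1 or 2 and 4 without young replicate 4. The largest was Ms4a7, a membrane-spanning protein of such macrophages, at 2.22. The scavenger receptor Cd163 was below background on all 8 arrays. Without young replicates 1 and 2, 15 of the 16 disease-associated and 8 of the 9 homeostatic calls were kept.

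The complement system tags material for removal, and microglia make much of it in brain. Of 18 listed genes 16 were tested, 3 of them through the aged group alone, and 11 were up-regulated, with a median of 1.35, or 1.26 when genes below background are put at their bound. C4b, a component of the classical pathway, gave 0.27, 0.69, 1.25 and 1.30 on young replicates 1 to 4 and 4.16, 4.44, 4.48 and 4.67 on the aged ones. Every aged array was above every young one, and the difference was 3.56 (SE 0.219, adjusted p = 1.7e-13), or 11.8-fold. The C1q subunits C1qa, C1qb and C1qc rose together, by 2.25, 2.13 and 2.23. C3, the central component, rose by 1.67, and Itgb2, the common chain of the complement receptors, by 1.99.

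Chemokines, the proteins that attract leukocytes, were among the strongest up-regulated families. Of 14 listed, 12 were tested, 5 of them through the aged group alone, and 10 were up-regulated, with a median of 2.12. Ccl3 and Ccl4, made by activated microglia, were not well above background on any young array. Ccl3 read -6.47, -5.70, -5.70 and -6.26 in young and -1.18, -1.15, -1.20 and -0.76 in aged cerebellum, and was at least 13.1-fold higher. Ccl4 was at least 13.9-fold higher. These folds too depend on the processing, since the lowest log2 differences over 19 alternative settings were 2.16 for Ccl3 and 2.15 for Ccl4, both still called. The T cell attractant Ccl5 was measured at both ages, at -3.60, -3.68, -3.90 and -3.40 and at 0.17, -0.51, -0.56 and -0.73. Its difference was 3.24 (SE 0.299, adjusted p = 1.3e-09). Cxcl10, an interferon-induced attractant of T cells, rose by 4.02 and Ccl2, an attractant of monocytes, by 2.61. Their lowest differences over the 19 settings were 2.425 and 1.157, both still called. Ccl8 was at least 6.73-fold higher and ranged more among aged mice than the other chemokines named here, from -3.01 to -0.41.

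Markers of the T cells these chemokines attract were less changed. Of 12 T and natural killer cell genes only 7 were tested and 1 was called, the granzyme Gzma, at 0.72 (adjusted p = 0.042), which lost its call in 13 of 19 alternative settings. The T cell receptor chain gene Cd3e differed by -0.02, and Cd8a was below background on all 8 arrays. Of B and plasma cell genes, Jchain, which joins antibody units, was below background in young mice and read -0.58, -3.04, -3.13 and -4.02 in aged ones. It was at least 4.25-fold higher, with aged replicate 1 well above the others. Cd79a, a B cell receptor chain, was 0.27 higher (adjusted p = 0.52).

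Genes that present antigen rose in both classes. All 7 of the MHC class II genes tested were up-regulated, 1 of them tested through the aged group alone, with a median of 1.66, or 1.58 at the bound. H2-Aa, the α chain of the I-A molecule, lay at -4.04, -4.11, -4.39 and -4.33 in young and at -1.04, -2.16, -2.94 and -2.74 in aged mice. The groups were apart, with aged replicate 1 the highest, and the difference was 2.00 (SE 0.332, adjusted p = 6.5e-05). H2-Eb1, a β chain, rose by 1.70 and again was highest on aged replicate 1, at 2.23 against 0.48 to 0.84 on the others. Cd74, the invariant chain, rose by 1.52. Of 13 MHC class I genes, 2 of them tested through the aged group alone, 8 were up-regulated with a median of 1.01, among them B2m, the common light chain, at 1.21 and Tap1, the peptide transporter, at 1.23 (adjusted p = 0.076 without young replicates 1 and 2). The immunoproteasome subunits Psmb8 and Psmb9, which cut peptides for class I molecules, rose by 1.91 and 1.40, and they were the 2 proteasome genes called of 37 tested.

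The interferon-stimulated genes formed the largest group, with 25 of 30 tested genes up-regulated and none down-regulated, against 4.54% of all genes, and a median of 1.37. Of the 30 genes, 1 was tested through the aged group alone. Of the called genes 19 had a promoter in the RefSeq table (GRCm38.p6, 250 bases before to 50 after the start). The core of the interferon-stimulated response element, searched as GAAANNGAA on both strands (TTCNNTTTC in reverse), stood in a window of 13 of these 19 genes, and of 9.76% of all 27025 genes with a window. It also stood in a window of all 3 uncalled list members that had one. The following stretches are shown because they hold overlapping or repeated copies in genes named here. They run 5′ to 3′ on the strand of the gene, with the matches in capitals.
Bst2, chr8:71537573-71537617, minus strand: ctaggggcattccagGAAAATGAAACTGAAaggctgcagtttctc
Ifit1, chr19:34640765-34640828, plus strand: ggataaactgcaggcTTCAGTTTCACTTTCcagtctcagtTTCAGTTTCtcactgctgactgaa
Ifit3, chr19:34583359-34583450, plus strand: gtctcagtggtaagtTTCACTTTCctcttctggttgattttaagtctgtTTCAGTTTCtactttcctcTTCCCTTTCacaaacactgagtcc
Irgm1, chr11:48871421-48871465, minus strand: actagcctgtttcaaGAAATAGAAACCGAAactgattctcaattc
Isg15, chr4:156200861-156200911, minus strand: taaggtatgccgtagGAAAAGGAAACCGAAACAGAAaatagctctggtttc
Oas1a, chr5:120907526-120907560, minus strand: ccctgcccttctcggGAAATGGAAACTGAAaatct
These letters describe the sequence and do not show that a factor bound there.

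Ifit1, which binds viral RNA and carries 3 such matches, read -3.97, -3.45, -2.26 and -2.98 in young and -0.22, -0.82, -0.79 and -1.45 in aged mice. The lowest aged array was above the highest young array, and the difference was 2.35 (SE 0.365, adjusted p = 2.5e-05). The other genes whose promoters are printed were higher by 1.06 (Isg15, a ubiquitin-like modifier) to 2.00 (Oas1a, which makes the activator of an RNA-cleaving enzyme). Bst2, which tethers virus particles to the cell, rose by 1.29, Ifit3 by 1.71 and Irgm1, a GTPase, by 1.50. Without young replicates 1 and 2, Ifit3 and Isg15 were not called (adjusted p = 0.053 and 0.24), and Isg15 also lost its call without aged replicate 1. The largest difference in the list belonged to Ifi27l2a, an interferon-induced mitochondrial protein, which rose from -0.24 ± 0.40 to 2.21 ± 0.37 (SD, n = 4 each). The transcription factor Stat2 was 0.07 lower on the log2 scale and was not called. Of the 25 calls, 17 were kept without young replicates 1 and 2, 23 without young replicates 3 and 4, and 20 with median scaling.

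Cytokine genes themselves were mostly dim. Of 16 cytokine and inflammasome genes only 8 were tested, 1 of them through the aged group alone, and 6 were up-regulated. Il6 and Tnf were below background on all 8 arrays, and Il1b was above it on 2 aged arrays. Casp1, the protease that releases interleukin-1, rose by 1.35 and Casp4 by 1.45. Il33, an alarm signal held in nuclei, rose by 1.23, with young replicate 1, at 0.07, below the range of 0.87 to 1.36 of the other young arrays, and it was not called without young replicates 1 and 2 (adjusted p = 0.17). Of 20 Toll-like and Fc receptor genes 16 were tested, 3 through the aged group alone, and 9 were up-regulated. Tlr2, a receptor for bacterial lipoproteins, rose by 2.43, Tlr4, the endotoxin receptor, by 1.50, and the Fc receptor chains Fcgr2b, an inhibitory receptor, and Fcer1g, a signalling subunit, by 2.23 and 2.00.

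Of 25 lysosomal genes tested, 2 of them through the aged group alone, 11 were up-regulated and the median was 0.42. Ctss, a cathepsin of microglia, lay at 2.02, 2.46, 2.66 and 2.61 in young and 4.66, 4.59, 4.56 and 4.90 in aged cerebellum. The groups did not overlap, and the difference was 2.24 (SE 0.143, adjusted p = 2.9e-13). Cd68, a membrane protein of macrophage lysosomes, rose by 2.99 and Laptm5, another of blood-derived cells, by 1.65. Other lysosomal genes were not called. Lamp1, the chief membrane protein of the organelle, differed by -0.02 and Npc1, the cholesterol exporter, by 0.07. Slc11a1, a metal transporter of phagocytic vacuoles, rose by 2.36 and Slc15a3, a peptide transporter of the same compartments, by 2.53, 2 of 14 up-regulated genes among 265 solute carriers tested. That share, 5.28%, was near the 4.54% of all genes, and the number was 8 without young replicate 2, 5 without young replicates 1 and 2 and 7 with median scaling. Slc15a3 was above background on 1 young array only.

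Lipid and eicosanoid genes gave a smaller set. Lpl, which releases fatty acids from lipoproteins, read -3.34, -3.25, -2.55 and -2.49 in young and -0.72, -0.80, -0.53 and -0.38 in aged mice. The difference was 2.30 (SE 0.180, adjusted p = 2.9e-11), and another Lpl probe was above background only in aged mice. Ch25h, which makes 25-hydroxycholesterol, rose by 2.58. Cholesterol synthesis and uptake genes included no call among 22 tested, with a median of -0.13. In eicosanoid synthesis 5 of 14 tested genes were up-regulated, 2 of the 14 tested through the aged group alone, and the number was 3 with median scaling or without young replicates 1 and 2 and 1 with normexp. Among them were Tbxas1, thromboxane synthase, at 1.40 and Alox5, which starts leukotriene synthesis, at 0.81. The Alox5 call was lost without young replicate 1, 2 or 3 (adjusted p = 0.056, 0.12 and 0.065). Ptgs2, the inducible cyclooxygenase, was below background in every young mouse and was at least 1.93-fold higher in aged mice, with no call without young replicates 1 and 2 (adjusted p = 0.059) or with normexp.

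Astrocyte genes split into reactive markers that rose and general markers that did not. Gfap, the intermediate filament of astrocytes, lay at 1.98, 2.07, 2.18 and 2.07 in young and 3.67, 3.95, 3.86 and 4.29 in aged mice. The groups were apart by 1.87 (SE 0.183, adjusted p = 4.6e-09), and all 3 Gfap probes were called. Serpina3n, a secreted protease inhibitor, rose by 3.54 and Timp1, an inhibitor of matrix proteases, by 1.67. In all, 10 of 16 tested reactive astrocyte genes, 2 of them tested through the aged group alone, were up-regulated, with a median of 0.90. The number was 8 without young replicate 1, 7 without young replicate 2 or 3 and 9 without young replicate 4. It was 8 without young replicates 1 and 2, 7 without young replicates 3 and 4 and 7 with median scaling. Lcn2, lipocalin-2, was called at 2.07 (adjusted p = 0.035) with a wide spread in aged mice, from -1.05 to 0.34, and lost its call when any of several single arrays was left out. Vim, vimentin, was 0.12 higher in cerebellum (adjusted p = 0.76). Of 17 Bergmann glia and astrocyte genes, 1 was up-regulated and 1 down-regulated. The water channel Aqp4 and the Bergmann glial growth factor Gdf10 were 0.15 and 0.11 higher and were not called. Fabp7, a fatty acid-binding protein of radial and Bergmann glia, was down-regulated by 1.28 (adjusted p = 0.019). Young replicate 4, at 2.45, was below the other young arrays, and the call was lost without young replicate 1, 2 or 3, or aged replicate 4. Without young replicate 1 the difference was -1.20 with an adjusted p of 0.062.

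Among 17 tested cell cycle inhibitors and p53 targets, 2 of them tested through the aged group alone, 2 were up-regulated, Cdkn2a among them. Cdkn2a, which encodes the inhibitor p16 and marks senescent cells, was below background on all young arrays at -5.18 to -7.09 and above it on all aged ones, at -3.59, -3.58, -3.57 and -3.07. Its signal was at least 2.51-fold higher (adjusted p = 1.1e-07). Cdkn1a, the inhibitor p21, differed by -0.18 (adjusted p = 0.87) and Cdkn2b, the inhibitor p15, by 0.01. A second Cdkn2a probe was below background at both ages.

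Granule and Purkinje cell genes were slightly lower in aged mice, with no calls. All 16 granule cell genes were tested, every difference was below 0, and the median was -0.42, against -0.0043 over all genes. The lowest difference, -0.63, was past the 1.5-fold limit but had no adjusted p under 0.05. Another 6 genes were lower at an adjusted p under 0.05 without reaching 1.5-fold. Gabra6 read 5.56, 5.59, 5.47 and 5.44 in young and 5.04, 5.14, 5.07 and 5.11 in aged mice. The groups did not overlap, and the difference was -0.42 (SE 0.125, adjusted p = 0.024). Cadps2, which primes vesicles for release, was lower by 0.47 on the log2 scale, Grin2c, an NMDA receptor subunit, by 0.45, and Cbln1, the secreted organiser of synapses onto Purkinje cells, by 0.52. No granule cell gene was called in the cerebrum, where the median was -0.10, and the difference between regions was called for 1.

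Purkinje cell genes were called in neither direction among 18 tested, with a median of -0.23. Pcp2 and Calb1, calbindin, differed by -0.12 and -0.34, with adjusted p of 0.64 and 0.12. Of 12 tested genes of inhibitory interneurons 9 differences were above 0, the median was 0.13, and 1 was called, Sst, described with the young arrays that set it. The inhibitory neuron genes Gad1, which makes GABA, and Slc32a1, which loads it into vesicles, differed by 0.03 and -0.16. Of 29 inherited ataxia genes tested, 2 were down-regulated, Syne1 among them. Syne1, an anchor of the nucleus, read 1.24, 1.41, 1.42 and 1.43 in young and 0.75, 0.77, 0.70 and 0.87 in aged mice and fell by 0.60 (adjusted p = 0.00020), just past the 1.5-fold limit. It was not past that limit without aged replicate 3, and its other tested probe differed by -0.31 (adjusted p = 0.14) and was not called. Ttpa itself was lower by 0.32 on the log2 scale (adjusted p = 0.67), and none of the 6 tested genes of vitamin E transport and catabolism was called.

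A few neuronal genes fell clearly. Ntf3, the growth factor neurotrophin-3, fell 4.19-fold, from 1.45, 1.46, 1.40 and 1.21 to -0.55, -0.73, -0.59 and -0.91 (adjusted p = 2.4e-08). All young arrays were above 1 and all aged arrays below 0. Nnt, a gene that differs between C57BL/6 substrains, was well above background on all 8 arrays.

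Receptors and exchangers fell by less. Grm4, the metabotropic glutamate receptor of granule cell terminals, was lower by 1.02 on the log2 scale (SE 0.155, adjusted p = 1.8e-05), and its other probe was also called. Gabra2, a GABA receptor subunit, fell by 0.89 and Slc8a2, a sodium-calcium exchanger, by 0.73. The latter read 4.40, 4.44, 4.30 and 4.42 in young and 3.61, 3.74, 3.65 and 3.65 in aged mice, with a narrow spread at both ages. It was the 1 gene called among 28 calcium pumps, exchangers and channels. Mkrn3, an imprinted ubiquitin ligase, fell 4.20-fold, and its other probe, at a log2 difference of -2.28, was also called. Pdlim3, a cytoskeletal adaptor, fell from -1.01 ± 0.22 to -3.01 ± 0.13 (SD, n = 4 each).

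Some of the largest rises were in genes of no inflammatory list. Ostn, which encodes the secreted peptide osteocrin, read -5.76, -4.07, -7.12 and -5.67 in young and -0.93, -1.31, -1.09 and -0.88 in aged mice. It was above background on 1 young array and all aged arrays, and it was called (adjusted p = 6.3e-10). With 3 of 4 young arrays below background the size is uncertain, and the fitted log2 difference was 4.61, or 2.23 with normexp. Tcap, a titin-binding protein known from muscle, rose 7.27-fold, from -1.54, -1.68, -1.72 and -1.07 to 1.40, 1.52, 1.09 and 1.43. Hpse, heparanase, which cleaves heparan sulphate, was at least 4.01-fold higher, and Mstn, the growth inhibitor myostatin, at least 1.60-fold. Th, which makes the dopamine precursor, rose by 0.93, from 1.08 to 1.52 in young to 1.97 to 2.69 in aged mice. It is also 1 of the 13 brainstem neuron genes listed. Of these only 4 were tested, and Th was the 1 called. The summed level of all 13 was 3.30 to 3.86 in young and 5.24 to 7.50 in aged mice. Because Th is part of that sum, the sum does not show whether the other listed genes rose. The part of brainstem neurons in the Th result was not tested.

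Oligodendrocyte, vascular and matrix genes changed in few cases. None of 17 tested genes of myelinating oligodendrocytes was called, with a median of -0.05. Mbp, a main myelin protein, differed by 0.24. Gpr17, a receptor of newly formed oligodendrocytes, fell by 0.84 (adjusted p = 0.015), and was not called without aged replicate 2 or without young replicate 4, when the difference was -0.67 with an adjusted p of 0.070. Of 18 endothelial genes 3 were up-regulated, among them Vwf, von Willebrand factor, by 1.07. None was without young replicates 1 and 2, when the adjusted p of Vwf was 0.066, and 5 were without young replicate 4. Of 28 collagens tested 5 were down-regulated and none up-regulated, and the 5 became 3 without young replicate 1, 2 without young replicate 3 and 2 without young replicates 1 and 2. Col23a1, a membrane collagen, read -0.81, -0.99, -0.97 and -1.16 in young and -2.51, -2.69, -2.51 and -2.92 in aged mice. It fell by 1.68 (SE 0.158, adjusted p = 2.0e-09), and all 3 of its probes were called. Col3a1, a fibrillar collagen, fell by 1.39, and Col4a1 and Col4a2, the chains of vascular basement membrane, by 0.65 and 0.60. Both of these lost their calls without young replicate 3, without young replicates 1 and 2 or with normexp. The Col4a2 call was also lost without young replicate 1, aged replicate 1 or aged replicate 2. Col1a1 and Col1a2 were not called.

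Genes of energy and protein metabolism were not called. None of 76 respiratory chain subunits, 18 glycolysis genes or 77 ribosomal protein genes was called. The ribosomal protein genes had a median of 0.22, with 75 above 0 and 19 higher at an adjusted p under 0.05 without reaching 1.5-fold. When arrays were scaled to their median in place of the 75th percentile, the median difference of all tested probes went from -0.01 to -0.07. Of 29 antioxidant and glutathione genes 2 were up-regulated, a share of 6.90% beside the 4.54% of all genes. Gpx3, a secreted glutathione peroxidase, rose by 1.62 and Hmox1, heme oxygenase, by 0.76, although a second Hmox1 probe differed by 0.11 and was not called. Tfrc, the transferrin receptor, fell by 0.98 and was down-regulated on all 3 probes. App, the amyloid precursor, differed by -0.06, and none of 14 genes of its processing was called. Bag3, a co-chaperone, and Hspb1, a small heat shock protein, were 0.76 and 0.60 higher as the 2 calls among 15 chaperones. Hspb1 lost its call when any 1 of the young arrays was left out (adjusted p = 0.054 to 0.085).

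Calls in several gene groups rested on some of the young arrays. Ttr, the thyroxine carrier made by choroid plexus, read 7.78, 4.64, 2.55 and 1.19 in young and -3.09, -5.66, -3.29 and -2.63 in aged cerebellum. All young arrays exceeded all aged ones, but the young ones differed among themselves by more than 6 units. The fitted difference was -7.70 (adjusted p = 5.8e-05), and -5.54 (adjusted p = 0.017) without young replicates 1 and 2. Of 13 tested choroid plexus genes, 4 of them tested through the young group alone, 5 were down-regulated, but 1 without young replicates 1 and 2 and 8 without young replicates 3 and 4. Kl, the anti-ageing hormone klotho, was 1 of the 5, and its difference of -2.30 became -0.75 (adjusted p = 0.78) without young replicates 1 and 2. The Kl call was also lost without young replicate 1 alone, young replicate 2 alone or any 1 of the aged replicates.

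The glutamate transporter gene Slc17a6 showed the opposite split. It read -5.17, -1.93, 1.99 and 2.63 in young and 2.30, 1.53, 2.32 and 2.09 in aged mice, so that young replicates 3 and 4 were at the aged level. The fitted difference of 2.68 (adjusted p = 0.042) became -0.24 (adjusted p = 0.93) without young replicates 1 and 2. Tac1, the precursor of substance P, at 2.39, went to 0.04. Sst, somatostatin, at 2.37, and the potassium channel Kcnc2, at 2.23, turned to -0.10 and -0.16. The receptor subunits Gabra5, at 2.05, and Grm5, at 1.40, became 0.23 and -0.06. The other tested Grm5 probe differed by -0.26 and was not called. Leaving out young replicates 1 and 2 also reduced the up-regulated potassium channels from 6 to 1, as did leaving out young replicate 1 alone or median scaling. The Slc17a6, Tac1, Sst, Kcnc2, Gabra5 and Grm5 calls therefore rest on these 2 young arrays.

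**Figure D3:**
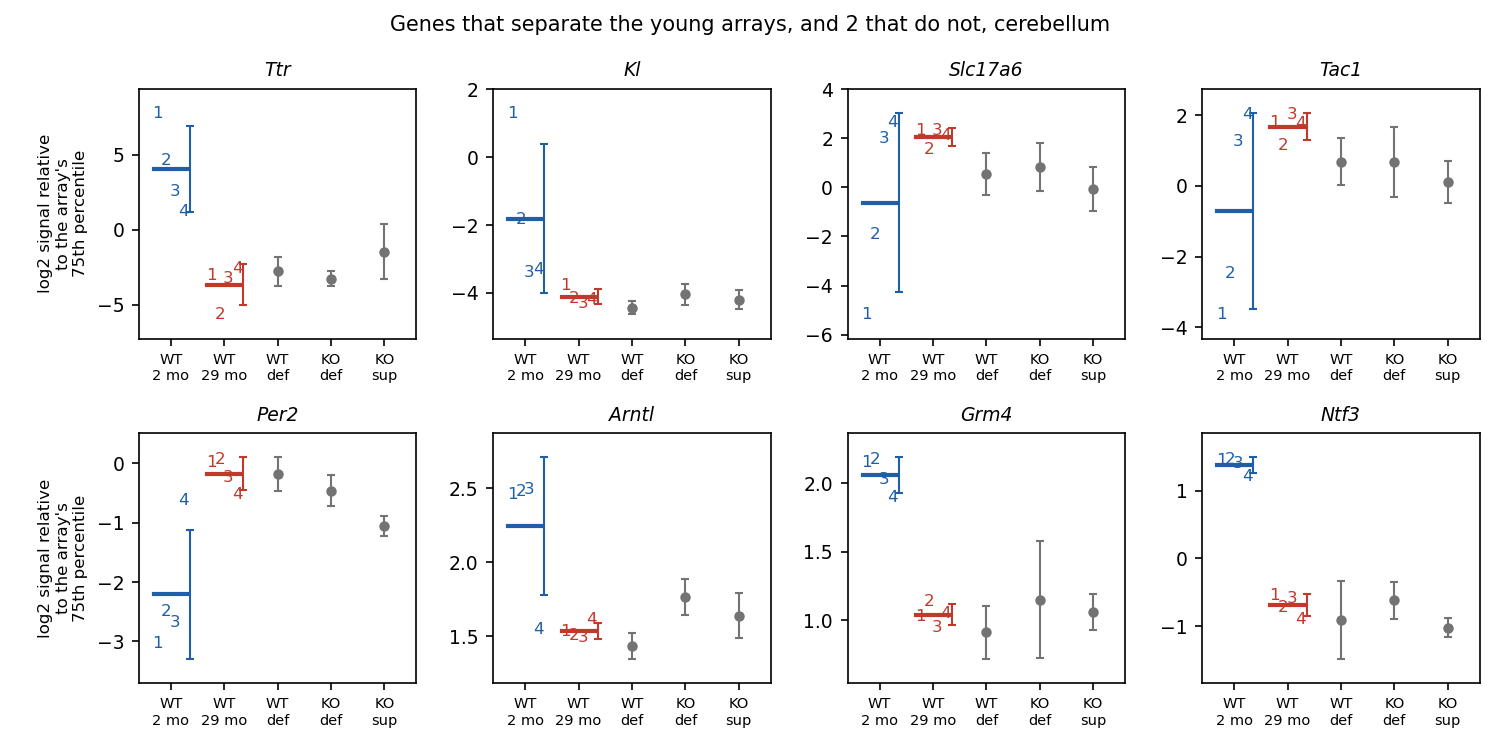
Log2 signal relative to each array's 75th percentile, with the digits marking young and aged wild-type replicates 1 to 4, bars the group mean and error bars the SD, and grey points the mean ± SD of the other aged cerebellar groups, named as in the plot of immune genes. Ttr, Kl, Slc17a6 and Tac1 spread widely among young arrays, Per2 and Arntl set young replicate 4 apart, and Grm4 and Ntf3 separate all 4 young from all 4 aged arrays.

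Clock genes separated young replicate 4 from the other young arrays. Per2, a repressor of the clock, lay at -3.04, -2.49, -2.69 and -0.62 in young and at 0.02, 0.07, -0.24 and -0.53 in aged mice. Arntl, the activator BMAL1 that runs opposite to it, lay at 2.46, 2.48, 2.49 and 1.54 and at 1.53, 1.51, 1.49 and 1.61. Young replicate 4 was thus at or next to the aged level for both. Of 19 tested clock genes 6 were up-regulated and 1, Arntl, down-regulated. The up-regulated number was 9 without young replicate 4 and 1 without young replicates 1 and 2, when Per2 was still called at 1.48 (adjusted p = 0.0029). Of 15 glucocorticoid-responsive genes 6 were up-regulated, and 1 without young replicates 1 and 2. Zbtb16, a zinc finger repressor of that list, read -0.60, -0.78, -0.36 and 1.16 in young and 1.52 to 1.92 in aged mice, and was not called without young replicates 1 and 2 (adjusted p = 0.10). Times of killing were not given in the sources used here.

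The E-box CACGTG, the site to which BMAL1 and its partner are known to bind, was searched in the same RefSeq windows. It stood in a window of 3 of the 5 up-regulated clock genes that had one and of 8.09% of all genes with a window. Ciart, a repressor of the clock, is shown because its window holds 3 copies. It rose by 1.33, and lay at -2.05, -2.14, -1.68 and -0.28 in young mice and at -0.34 to -0.02 in aged mice. Without young replicates 1 and 2 neither Ciart (adjusted p = 0.23) nor Arntl (adjusted p = 0.071) was called.
Ciart, chr3:95882252-95882359, minus strand: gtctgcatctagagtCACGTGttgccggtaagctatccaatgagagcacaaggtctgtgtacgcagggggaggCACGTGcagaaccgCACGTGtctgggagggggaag

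Red blood cell genes were called in 5 of 7 tested cases. Hbb-bs, a β-globin, read -1.86, -2.27, -3.25 and -1.93 in young and 1.17, -1.08, -0.41 and 2.33 in aged mice, highest on aged replicates 4 and 1. Its adjusted p was 0.038, and the list held no call once young replicate 1, 2 or 3 was left out. The neutrophil gene S100a8 read 3.40 on aged replicate 1 and was not called (adjusted p = 0.062), but was called without aged replicate 4. Without that array the median of the neutrophil list was 2.72 in place of 2.24. The median of the red blood cell list was then 2.16 in place of 2.58. Jchain, H2-Aa and H2-Eb1 were highest on aged replicate 1, and the part of blood in those values was not tested. Of the microglial genes, Cst7, Itgax and Gpnmb were highest on aged replicate 4, as was Hbb-bs, and C1qa differed by at most 0.19 among the aged arrays. The part of blood in these values was not tested either.

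**Figure D4:**
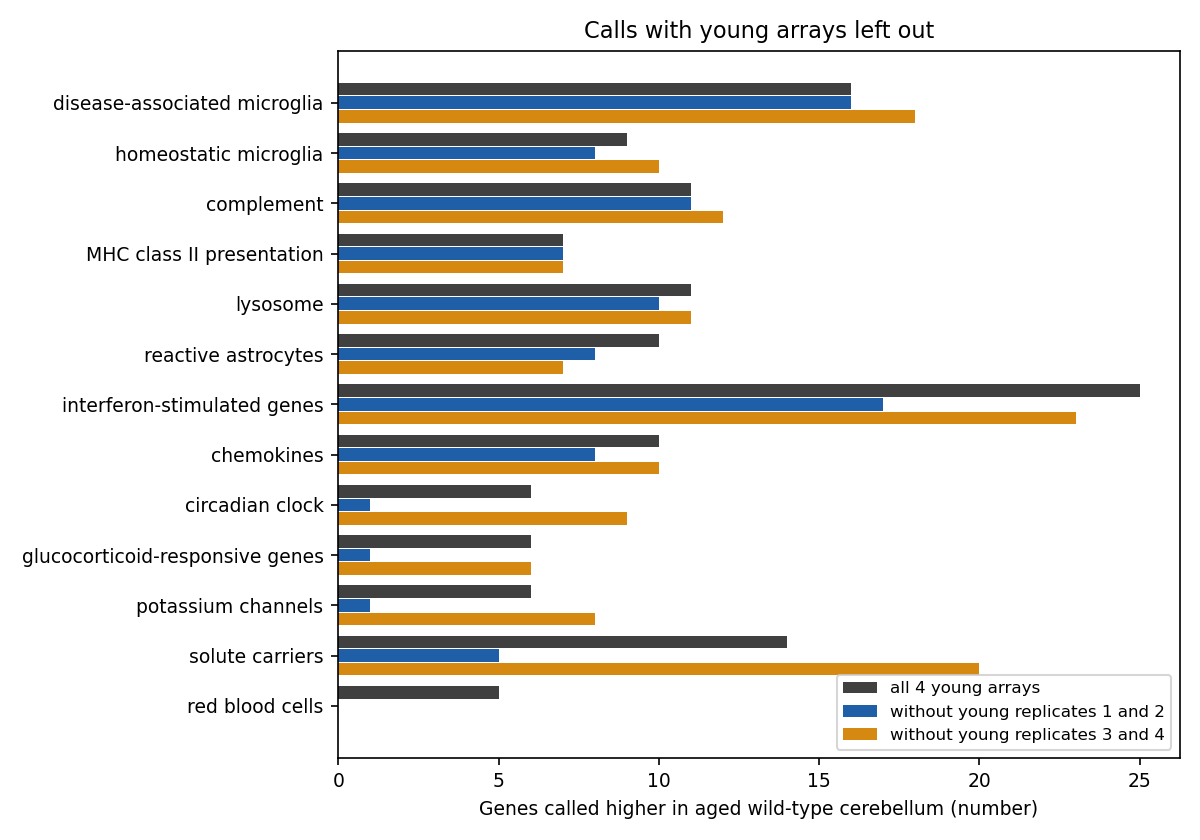
Number of up-regulated genes per list with all young arrays, without young replicates 1 and 2, and without young replicates 3 and 4. The microglial, complement, MHC class II and lysosomal counts stay within 2 of their full value, while the clock, glucocorticoid, potassium channel and red blood cell counts fall to 1 or 0 without young replicates 1 and 2.

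The same fit gave the change with age in cerebrum and the test of the difference between the regions. That difference was called for 257 genes with the more positive change in cerebellum, 1.12% of 22979 tested, and for 113 with the more negative one, 0.492%. Counted over probes these were 459, and 142 with median scaling or 194 without young replicates 1 and 2. Homeostatic microglia genes were the clearest case. None of 14 was up-regulated in cerebrum, where the median was -0.02, and the difference between regions was called for 7. Aif1 rose by 1.79 in cerebellum and was 0.32 higher in cerebrum, a difference between regions of 1.47 (SE 0.239, adjusted p = 0.00034). Its mean was -0.13 in young cerebellum and 1.88 in young cerebrum, and 1.66 and 2.20 in aged mice, so the young cerebellum was the lowest of the 4 groups.

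Genes of activated microglia rose in both regions and by more in cerebellum for some. Disease-associated microglia genes were up-regulated in 14 of 22 cases in cerebrum, with a median of 0.84, and 8 differed between regions. Gpnmb differed between regions by 1.96. The difference was also called for Cst7 and Cd68, which were above background on 0 and 2 of the young cerebellar arrays, so that its size is uncertain. For Cst7 the call was lost with normexp (0.90, adjusted p = 0.24). Lpl was 0.07 higher in cerebrum, and the regions differed by 2.23 (SE 0.255, adjusted p = 2.2e-06). The difference was called for C1qa and C1qc, at 1.38 and 1.51. It was not called for C4b, which rose by 3.42 in cerebrum, nor for Clec7a, Gfap, Ifit1, H2-Aa or Ccl5. The interval of the C4b difference, 0.14 with an SE of 0.310, leaves room for changes in either direction. Vim was 1.30 higher in cerebrum, and the region difference of -1.19 was called.

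**Figure D5:**
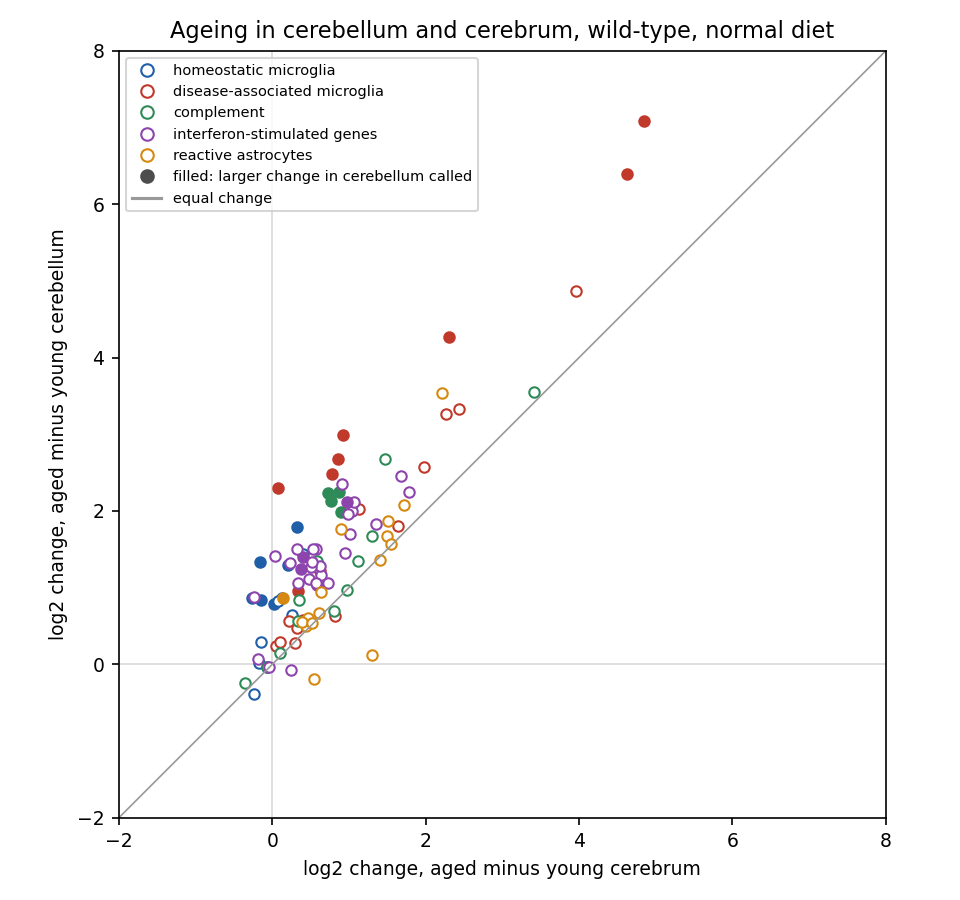
Change with age in cerebellum against change with age in cerebrum, log2, for the genes of the glial, complement and interferon lists, with the diagonal marking equal change and filled points a larger change called in cerebellum. Homeostatic microglia genes lie near 0 on the cerebrum axis and up to 1.79 on the cerebellum axis, and C4b lies close to the diagonal at 3.42 and 3.56. The highest points, Cst7 and Itgax, were below background on all young cerebellar arrays.

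Genes outside the immune lists also differed between regions. Tcap rose in cerebellum and had a cerebral difference of 0.10, which gave a difference between regions of 2.76. The difference was also called for Ostn and Hpse, with no sure size, since 3 and 4 of the young cerebellar arrays were below background. Ntf3 and Pdlim3 fell in cerebellum and had cerebral differences of 0.52 and 0.03, so that the regions differed by -2.59 (adjusted p = 4.6e-06) and -2.03 (adjusted p = 3.5e-07). The difference was also called for Col23a1, at -1.68, and for Slc8a2, at -0.61, and Syne1, at -0.64, which were not called with median scaling or without young replicates 1 and 2. Slide was confounded with age in cerebellum alone, so it enters each of these region differences too.

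The 12 other aged cerebellar arrays came from wild types fed the deficient diet and from Ttpa-/- mice fed either that diet or the supplemented one, which held 600 mg/kg of α-tocopherol. They share the young controls, so their values are given side by side only. Means of Clec7a were 1.25 under the normal diet and 0.96, 0.60 and 0.88 in these groups, against -3.63 in young mice. Means of C4b were 4.43, and 4.35, 4.25 and 4.45, against 0.88. For Ntf3 the means were -0.69, and -0.91, -0.62 and -1.02, against 1.38. All 12 arrays were beyond all 4 young arrays, on the aged side, for each of these genes. Syne1 was an exception, with means of 1.33, 1.16 and 1.27 in the other aged groups against 1.37 in young and 0.77 in aged mice on the normal diet, and only 4 of the 12 arrays were below every young array.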

How the data were processed

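RNA of 40 mouse brain samples, 4 per group in 10 groups, had been hybridised to 1-colour Agilent arrays. The authors deposited scanner intensity values from Feature Extraction, with background subtraction and per-spot flags, and a series table of log2 values, which the values used here matched to a median absolute difference of 0.00085 after centring. Probe positions in the files were mm9. Samples were grouped by their labels. Processed signals of gene probes were averaged over spots, scaled to each array's 75th percentile and taken to log2, after 92 of 55681 probes flagged as outliers were left out. The percentile is computed over all probes, so a change is relative to the rest of the array. Each gene is represented by the probe whose mean was highest across the arrays. Symbols come from the RefSeq table where a probe's accession, its symbol or a synonym held by 1 gene matched (28671 probes). Other names come from the array's design. A probe was tested if 1 or more of the compared groups had it well above background on all 4 arrays. Tests used limma 3.58.1 in R 4.3.3, with 1 coefficient for each group over all 40 arrays and 30 residual degrees of freedom. Benjamini-Hochberg adjustment was over all tested probes, and a gene has the adjusted p of its probe. Calls needed an adjusted p under 0.05 and a fold over 1.5. The number of arrays, 4 per group, limits the precision. Where a probe was below background on all arrays of 1 group, "at least" folds set the other group's mean against the lowest signal that was well above background. A list's median at the bound uses these. The bounds hold for the main processing only. Over the 19 alternative settings the lowest log2 differences were 1.53 for Ccl8, 1.24 for Jchain and 0.75 for Cdkn2a.

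Genes named by rule are the 12 most strongly risen and 12 most strongly fallen called genes whose groups did not overlap, up to 4 called members of each list with the largest change (or the first tested members where fewer than 2 were called), the first 2 of each cell type list, all sex-linked and substrain-variable genes, the 6 with the largest difference between regions each way, and members of symbol families with the highest shares called. Other members of a list given as examples were chosen after their values were seen. The comparison, the lists and the genes were chosen with earlier results of these data known, and the outlying behaviour of young replicates 1, 2 and 4 was seen before the settings without pairs of young replicates were added. Same-numbered young and aged arrays did not deviate together (correlations -0.162, 0.215, 0.0593 and 0.171), and the numbers were not used as pairs. Alternatives were median and quantile scaling, normexp background correction, the authors' table, no filter on dim probes, array weights, smaller sets of arrays, a replicate block, each replicate left out and the t-test of the study's methods. The code was tested on simulated data. Some genes that the rule names are not reported here.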

Additional observations from a re-analysis of the deposited data

Results flagged for a closer look

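Groups of 4 arrays, 250 in all, were examined for 120 of the genes the text discusses and for the marker sums. Of these groups 16 held an array whose gap to its nearest neighbour exceeded Dixon's 95% critical value, and chance alone gives about 1 in 20. The choroid plexus sum was 403.1 on young replicate 1, against 31.5 to 66.4 on the other young arrays. Young replicate 1 was also set apart for Aqp4 (3.45), App (6.33) and Syne1 (1.24), each lower than the other young arrays. Young replicate 4 was low for Arntl (1.54) and Fabp7 (2.45), and young replicate 3 high for Lgals3bp, a secreted interferon-induced glycoprotein (1.07). Aged replicate 4 was high for Cst7 (0.75), Ccl3 (-0.76), Gjb6 (5.15), Cdkn2a (-3.07), Gpx3 (-0.013), Vwf (2.74) and Kcne2 (-6.30, below background). Aged replicate 2 was high for Lgals3bp (2.90) and aged replicate 3 for Tfrc (0.75).

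For 35 of these 120 genes the change with age differed between cerebellum and cerebrum in the test of the difference itself. Over all 22979 genes tested, 1.12% were called more positive in cerebellum and 0.492% more negative. The 120 were chosen in part for large changes with age or between regions, so their count does not show how common such differences are. Vim, whose region difference is given above, was not among the 120. Young and aged cerebellum lay on different slides. The difference, in log2 and cerebellum minus cerebrum, was positive for genes of microglia and macrophages, with 2.23 for Cst7, 1.76 for Itgax, 1.96 for Gpnmb, 2.23 for Lpl, 1.47 for Aif1, 0.73 for Tmem119 and 1.26 for Ms4a7. It was 1.38 for C1qa, 1.51 for C1qc, 1.94 for Ccl3, 1.56 for Ccl4, 1.15 for Lgals3bp, 1.21 for Fcgr2b and 1.39 for Fcer1g. Among lysosomal and transport genes it was 1.16 for Ctss, 2.06 for Cd68, 1.35 for Laptm5, 2.11 for Atp6v0d2, 1.10 for Slc11a1 and 2.05 for Slc15a3. It was 1.04 for Tbxas1, 1.03 for the potassium channel Kcnk6, 2.40 for the survival gene Bcl2a1c, 5.70 for Ostn, 2.76 for Tcap, 3.07 for Hpse, 2.74 for Mstn and 0.97 for Th. The sizes for Cst7, Itgax, Ccl3, Ccl4, Atp6v0d2, Bcl2a1c, Hpse and Mstn rest on no young cerebellar array above background, and those for Ostn, Slc15a3 and Cd68 on 1 or 2. Negative differences were found for Ntf3 (-2.59), Pdlim3 (-2.03), Cpsf4l (-2.05), Col23a1 (-1.68), Syne1 (-0.64) and Slc8a2 (-0.61), and for Ttr (-7.62), which was not called without young replicate 1 (adjusted p = 0.054).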

How the results depend on the processing

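The number of up-regulated probes, 1223, was 720 with normexp background correction, 740 by the methods' t-test with Benjamini-Hochberg adjustment and 677 without young replicates 1 and 2. The number of down-regulated probes, 318, was 194 without young replicates 1 and 2, 489 without young replicates 3 and 4, 547 at an unadjusted p and 513 by the methods' t-test unadjusted. Probes that differed between regions, 459, were 142 with median scaling, 787 with array weights, 194 without young replicates 1 and 2, 1020 without young replicates 3 and 4 and 1747 at an unadjusted p. Median scaling gave 839 up- and 354 down-regulated probes. Leaving out 1 array at a time gave 928 to 1440 up-regulated probes, 248 to 406 down-regulated probes and 304 (without young replicate 2) to 757 (without young replicate 4) region differences. The causes were not tested. The replicate number as a block gave 1232, 331 and 477, so pairing moved no count by 1.5 times, and the slide as a block could not be fitted. Without young replicates 1 and 2, differences turned for Sst (-0.10), Grm5 (-0.063), Kcnc2 (-0.16) and Slc17a6 (-0.24). Under all 19 settings run for single genes, calls were kept for Cst7, Itgax, Clec7a, Gpnmb, Lpl, Aif1, C4b, C1qa, Ccl3, Ccl5, H2-Aa, Ifit1, Ctss, Gfap, Serpina3n, Cdkn2a, Ntf3, Pdlim3, Mkrn3, Grm4, Slc8a2, Col23a1, Ostn, Tcap and Hpse. Cfb, Atp6v0d2, Hpgds, Mstn and Serpinb2, each not well above background on 1 or more arrays of one age, were not called with normexp, and other dim genes kept their calls at smaller differences (3.37 in place of 7.08 for Cst7, 1.01 in place of 3.30 for Hpse). Signal near background limits every fold at the dim end.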
